A study of Mustela putorius furo with 10 samples.

Results

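Genes of the oxidative phosphorylation (OXPHOS) complexes were followed in ferret peripheral blood mononuclear cells (PBMC). A gene was a member if its RefSeq symbol, found through the accession of its array target, was that of a complex I, II, III, IV or V subunit family and if its Cy3 signal was well above background on at least 4 of the 10 arrays. The gene table gave 69 such symbols. Of these, 51 had probes on the array and 50 passed the filter, among 26303 genes tested. Of the genes tested, 9276 had a symbol, and each target sequence without one was counted as a gene of its own. Shares of all genes below are over this mixed set. The 50 members comprised 31 subunits of complex I, 3 of complex II, 1 of complex IV (NDUFA4), 11 of complex V and 4 assembly factors or regulators (NDUFAF1, NDUFAF3, NDUFAF5 and ATP5IF1), so that 46 were subunits. NDUFA4L2, a relative of NDUFA4, was well above background on only 1 array and was left out. Complex III, the other subunits of complex IV, the subunits encoded by mitochondrial DNA, and some further subunits, among them SDHA and ATP5F1C, were not analysed here.

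The respiratory chain of the inner mitochondrial membrane passes electrons from NADH (through complex I) and from succinate (through complex II) to oxygen and pumps protons on the way. Complex V, the ATP synthase, lets the protons flow back and makes ATP. In brown fat, cold is known to raise respiration while uncoupling protein 1 lets protons bypass complex V, and lymphocytes and monocytes at rest obtain much of their ATP from the same chain.

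All ferrets were males of 3 months. The 6 control animals were kept at 22 °C, and the 4 cold animals at 4 °C for 1 week and, per the labels, in individual cages. The labels do not give the housing of the controls, so a part of single housing cannot be told apart from that of temperature. PBMC were prepared on a Ficoll gradient. Every animal had its own 2-colour Agilent array, with its RNA in Cy3 and, in Cy5, one reference pool of PBMC mixed with other tissues, common to all arrays. Values below are log2 ratios of ferret over pool after loess normalisation, and a change is the mean of the cold arrays minus the mean of the control arrays.

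Spots well above background made up 50.4 to 63.5% of an array in Cy3 and 27.0 to 64.0% in Cy5. The median Cy5 intensity was 44 to 80 on control arrays and 48 to 152 on cold arrays, with the lowest of the cold values on cold replicate 2. By their best probe, 48 of the 50 members were well above background in Cy3 on all 10 arrays. In the probes kept, 41 had every Cy5 spot well above background, and none had a saturated spot. The members had to pass a Cy3 filter, so these counts do not compare with the shares of all spots. In bulk RNA of this kind, fewer cells of a type and less RNA per cell cannot be told apart.

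After loess the OXPHOS genes moved little between the groups, whereas with arrays centred on their median 48 of 50 were lower in cold (median -1.003), and 45 of 50 were lower in the deposited value table (median -0.43). The changes after loess ran from -0.26 (ATP5F1D) to 0.33 (NDUFS8), with 30 higher and 20 lower in cold and a median of 0.03, against a median of -0.01 over all genes tested. None of the 50 members had an unadjusted limma p under 0.01, the threshold of the study's methods, where 5.21% of all genes passed with higher and 3.43% with lower values in cold. The methods' t-test gave 0 members as well. At an unadjusted p under 0.05 each test called 1 member, NDUFS8, which was higher, while 12.2% of all genes were higher and 12.5% lower in cold by limma. The lowest adjusted p of a member was 0.148 (limma), and 0 of the 26303 genes passed an adjusted p of 0.05. Without cold replicate 2, 1272 genes passed it, without control replicate 5, 633, and without cold replicate 1, 12. In Cy3 alone 741 genes passed, with only probes well above background on all arrays 115, and with slide position in the fit 5. Members made up 0 of them in each case.

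No member had all 4 cold values above or all below the 6 control values, where 3.07% of all genes lay above and 2.15% below without overlap. The 95% intervals of the change (limma) lay inside a log2 change of 1 in either direction for 50 of 50 members, and inside 0.5 for 40 of 50, or 80.0%. Among all genes tested, 90.1% and 62.3% had intervals inside these limits. Members with wider intervals included NDUFA5, a matrix arm subunit that rested on 1 probe and reached from -0.64 to 0.62. These intervals hold for the loess ratios alone, since most members changed more with median centring and in the deposited table. They do not show that the groups were equal.

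**Figure D1:**
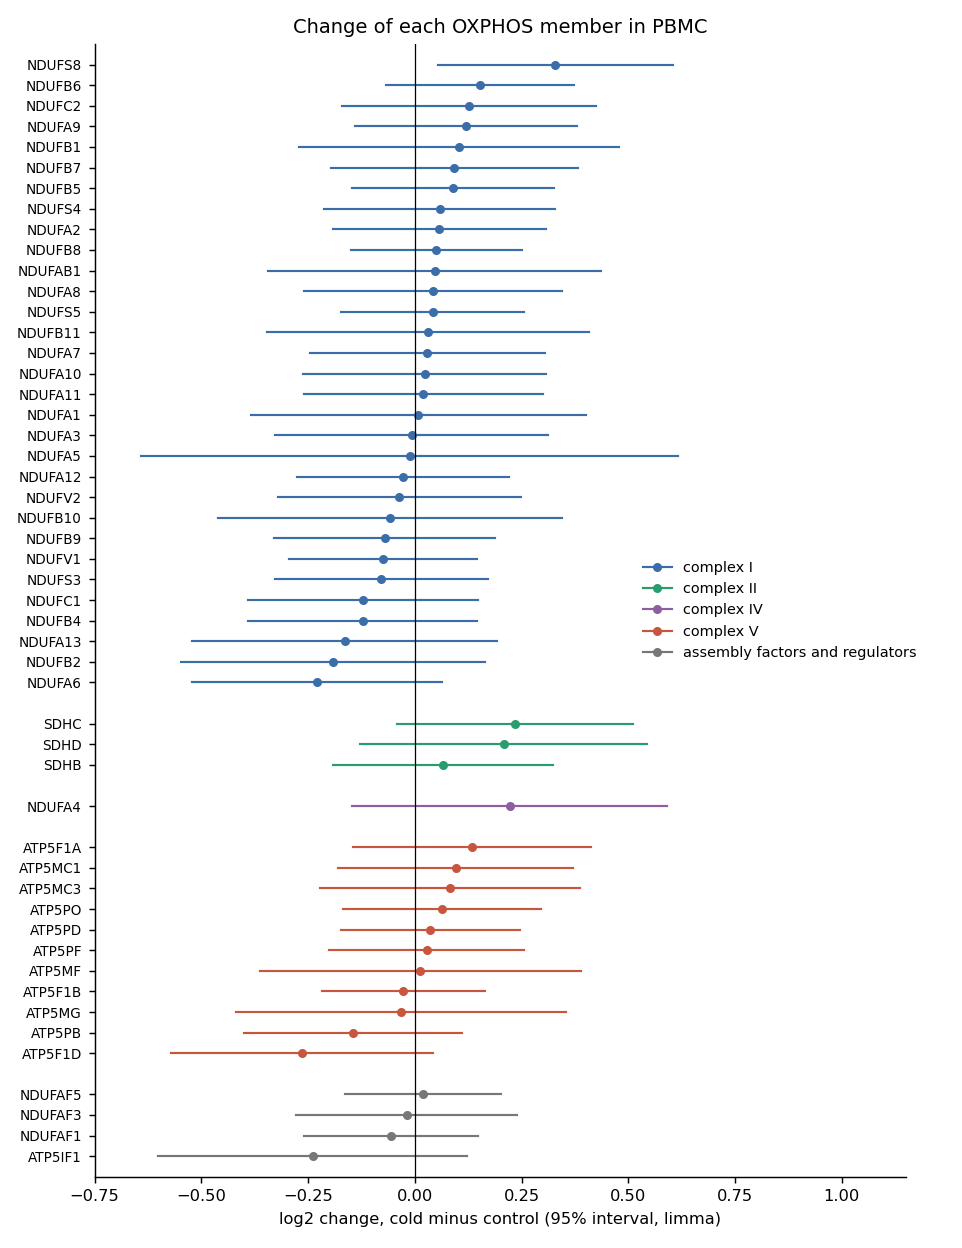
Log2 change (cold minus control, x axis) of each of the 50 members with its 95% limma interval, by complex. All intervals lie between -0.64 and 0.62, and only that of NDUFS8 does not include 0.

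Complex I, the NADH dehydrogenase, had 18 subunits higher and 13 lower in cold, with a median change of 0.02. NDUFS8, a core subunit that carries iron-sulfur clusters on the path to quinone, changed most. Its log2 ratio in control ranged from 0.09 to 0.50 with a median of 0.26, and it was 0.49, 1.01, 0.42 and 0.51 in the 4 cold animals. One control value, that of replicate 2, lay among the cold values, and cold replicate 2 stood far above the other cold animals.

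NDUFS8 averaged 0.28 ± 0.15 (SD, n = 6) in control. In cold the mean was 0.61 ± 0.27 (SD, n = 4), a change of 0.33 with a standard error of 0.13. The unadjusted limma p was 0.0235 and the adjusted p 0.148, and an exact permutation test over 210 splits of the arrays gave a two-sided p of 0.0190. All 4 probes moved upwards, by 0.25 to 0.42. Without cold replicate 2 the change was 0.20 and the limma p, with no adjustment, was 0.0781. Without control replicate 2 the groups did not overlap, as for 3.35% of all genes in the upward direction in that setting. The gene was also higher in cold within both slide positions, by 0.47 and 0.18. It was also higher in Cy3 alone, by 0.25, and with processed signals, by 0.26, but there the unadjusted limma p was 0.0717 and 0.146. The sign turned in the deposited value table (-0.073) and with median centring of the arrays (-0.56).

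Of the other core subunits measured, NDUFV1, which binds NADH, changed by -0.08 (95% interval -0.29 to 0.14). NDUFV2 and NDUFS3, further core subunits of the matrix arm, changed by -0.04 (-0.32 to 0.25) and -0.08 (-0.33 to 0.17). Thus NDUFS8 was the only one of these 4 with an interval above 0, and whether it differed from the other 3 was not tested. The largest decrease in complex I was that of NDUFA6, an accessory subunit of the matrix arm. It ranged from -0.27 to 0.34 (median -0.02) in control and was -0.21, 0.04, -0.35 and -0.41 in cold. The change of -0.23 (standard error 0.13) had a limma p of 0.115 and an exact permutation p of 0.133. In Cy3 alone NDUFA6 changed by -0.038, while its Cy5 signal, from the pool, changed by 0.28. The other 26 subunits of complex I changed by between -0.19 (NDUFB2) and 0.15 (NDUFB6), with the lowest unadjusted p at 0.156 (NDUFB6).

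Split by position in the complex, the 11 measured subunits of the matrix arm, which oxidises NADH, comprised 5 higher and 6 lower with a median of -0.01. The 19 of the membrane arm, which pumps protons, comprised 12 higher and 7 lower with a median of 0.02. NDUFAB1, which sits in both arms, changed by 0.05. The quartiles of the changes were -0.06 and 0.06 in the matrix arm and -0.06 and 0.07 in the membrane arm.

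Complex II, succinate dehydrogenase, had all 3 measured subunits higher in cold and a median change of 0.21. SDHC, one of the pair of membrane anchors, ranged from -0.52 to -0.07 (median -0.34) in control and was -0.25, 0.26, -0.05 and -0.33 in cold. SDHD, the other anchor, ranged from -0.42 to 0.12 (median -0.29) in control and was -0.37, -0.19, 0.22 and 0.29 in cold. SDHB, the iron-sulfur subunit, ranged from -0.36 to 0.16 (median -0.08) in control and was -0.22, -0.01, -0.12 and 0.17 in cold. The groups overlapped for each of the 3 genes, and the cold animals with the highest value differed, with replicate 2 highest for SDHC and replicate 4 for the others.

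The changes were 0.23 for SDHC (limma p = 0.0883, exact permutation p = 0.100), 0.21 for SDHD (0.200 and 0.238) and 0.07 for SDHB (0.583 and 0.581). None passed either threshold. With 3 genes, the direction of the complex rests on few probes, 4 for each gene. In the Cy3 channel alone the 3 genes were also higher, with a median of 0.10, and SDHD had an unadjusted p of 0.0327. In the deposited value table and with median centring all 3 were lower, with medians of -0.22 and -0.78. SDHC changed by 0.12 without cold replicate 2, and SDHD by 0.11 and SDHB by -0.0055 without cold replicate 4.

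NDUFA4, first named for complex I and now placed in complex IV, was the only complex IV gene measured. It ranged from -0.22 to 0.66 (median 0.01) in control and was 0.19, 0.56, 0.30 and 0.09 in cold. The 4 cold values lay above all control values but those of replicates 3 and 6, of which replicate 6 was the highest of all 10 arrays. The change of 0.22 (95% interval -0.15 to 0.59) had a limma p of 0.213 and an exact permutation p of 0.271. It was 0.13 without cold replicate 2 and 0.34 without control replicate 6 (unadjusted limma p of 0.0173), and the sign turned with median centring (-0.86) and in the deposited value table (-0.28). A second target sequence that the study assigned to the NDUFA4 locus, but that the gene table used here did not name, was not counted as a member. It ranged from -0.16 to -0.02 in control and was -0.08, -0.03, 0.20 and 0.05 in cold, so the groups overlapped. Its change was 0.14 (standard error 0.08), with a limma p of 0.0987 (adjusted 0.284) and an exact permutation p of 0.0429, and in Cy3 alone it was 0.18.

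Complex V had 7 subunits higher and 4 lower in cold, with a median change of 0.03. ATP5F1A and ATP5F1B encode the alpha and beta subunits of the catalytic F1 head. ATP5F1A ranged from -0.97 to -0.37 (median -0.71) in control and was -0.76, -0.35, -0.67 and -0.50 in cold. ATP5F1B ranged from -0.90 to -0.52 (median -0.69) in control and was -0.65, -0.63, -0.85 and -0.76 in cold. The cold values of both genes lay almost wholly within the control range, and the changes were 0.13 (95% interval -0.14 to 0.41) and -0.03 (-0.22 to 0.16).

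ATP5F1D, the delta subunit of the central stalk, had the largest decrease of all members. It ranged from -0.55 to -0.10 (median -0.27) in control and was -0.62, -0.30, -0.95 and -0.44 in cold. Replicates 2 and 4 of the cold group lay within the control range and the others below it. The change of -0.26 (standard error 0.14) had a limma p of 0.0857 and an exact permutation p of 0.114, and all 4 probes were lower. Without cold replicate 3 the change was -0.14, with an unadjusted limma p of 0.298. Within slide positions it was -0.07 and -0.54.

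ATP5MC1 and ATP5MC3 are separate genes for the same mature c subunit, the proton-carrying ring of Fo. ATP5MC1 changed by 0.10 (95% interval -0.18 to 0.37) and ATP5MC3 by 0.08 (-0.22 to 0.39). ATP5MC3 ranged from -1.32 to -0.85 (median -1.12) in control and was -1.21, -0.61, -1.13 and -1.06 in cold. Within the cold group both genes were highest in replicate 2. The remaining subunits, of the stalks and the membrane part, lay between -0.15 (ATP5PB, in the peripheral stalk) and 0.06 (ATP5PO, also there). The 3 measured F1 subunits had a median change of -0.03 (1 higher, 2 lower) and the 8 of Fo and the peripheral stalk one of 0.03 (6 higher, 2 lower).

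**Figure D2:**
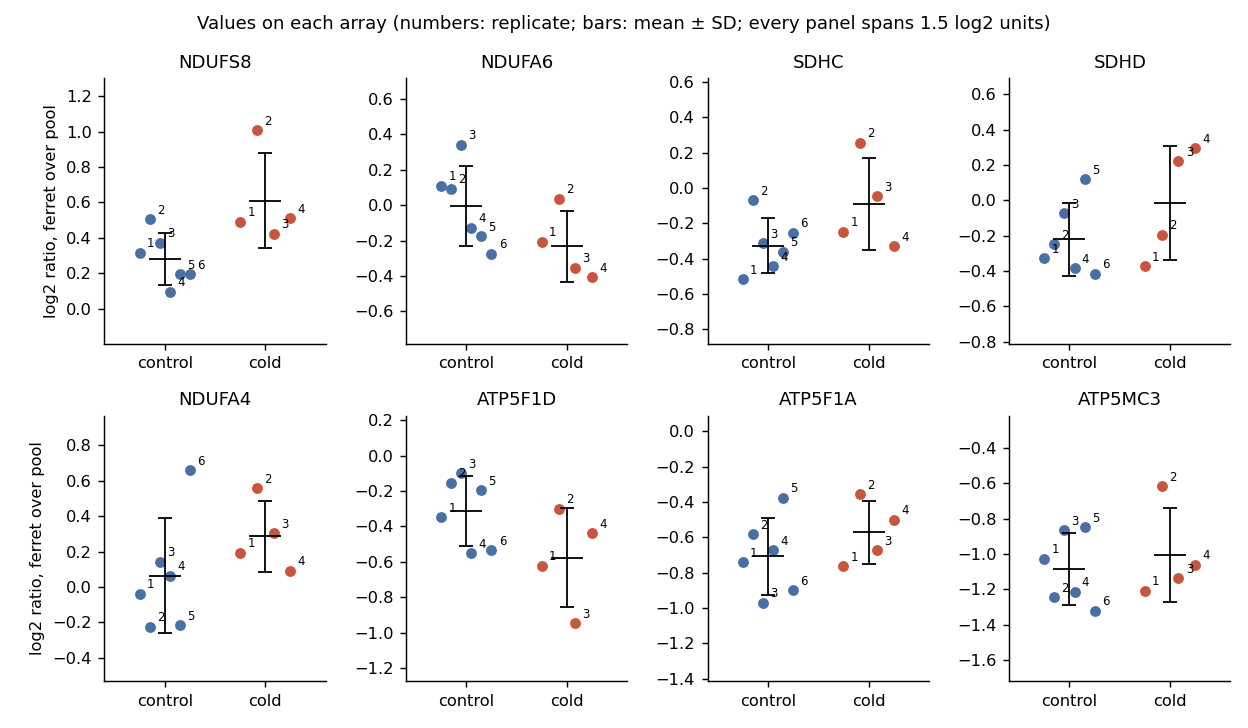
Log2 ratio of ferret over pool (y axis) for 8 members on each array, with control in blue and cold in red, replicate numbers beside the points, and bars for the mean ± SD. The groups overlap in each panel, and cold replicate 2 is the highest cold value for NDUFS8 (1.01), NDUFA6 (0.04), SDHC (0.26), NDUFA4 (0.56), ATP5F1D (-0.30), ATP5F1A (-0.35) and ATP5MC3 (-0.61).

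Among the assembly factors and regulators, 1 was higher and 3 were lower. ATP5IF1 encodes the inhibitor that stops complex V from running backwards. It ranged from -0.50 to 0.27 (median -0.46) in control and was -0.85, -0.26, -0.51 and -0.62 in cold, and the highest control value, that of replicate 3, lay far from the others. Its change was -0.24 (limma p = 0.174, exact permutation p = 0.252). Without control replicate 3 the change was -0.12, and in Cy3 alone it was -0.02, with a change of 0.25 in Cy5. NDUFAF1, NDUFAF3 and NDUFAF5, which help to build complex I, changed by -0.06, -0.02 and 0.02. The NDUFAF1 ratio rests on a dim pool signal, with 8.3% of its Cy5 spots well above background in control and 35% in cold.

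One animal carried much of the spread. The median deviation of the 46 subunits from their control means was -0.12 to 0.09 on the control arrays, and -0.12, 0.30, -0.12 and 0.00 on the cold arrays. Cold replicate 2 was the highest of the 4 cold arrays for 37 of the 46 subunits (80.4%) and for 31.1% of all genes. It was the highest of all 10 arrays for 29 subunits (63.0%), against 9.06% of all genes. In complex V it was the highest cold array for 11 of 11 subunits and in complex I for 24 of 31, but in complex II for 1 of 3. These shares are descriptions of 1 animal, and the subunits on 1 array share its RNA, labelling and hybridisation.

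The median SD of a subunit was 0.16 in control and 0.25 in cold, and 37 of 46 subunits (80.4%) had the larger SD in cold, against 62.9% of all genes. Without cold replicate 2 the cold median was 0.17 and the count 28 (60.9%), against 55.8% of all genes. Over all genes the medians were 0.16 and 0.20 with all arrays.

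Without cold replicate 2, the highest cold array for most subunits, the direction of the group turned. Then 15 subunits were higher and 31 lower, and the median change was -0.06, against -0.02 for all genes in that setting. The subunit median moved by less than its SD between arrays, 0.14. At an unadjusted p under 0.05, 5 subunits were lower and none higher by limma, where 16.3% of all genes were lower and 3625 of 26303 higher. They were ATP5F1D (-0.36), NDUFB2 (-0.35), NDUFA6 (-0.32), ATP5MG (-0.25) and NDUFC1 (-0.25), of which NDUFB2 and NDUFC1 are accessory subunits of the membrane arm and ATP5MG a small membrane subunit of complex V. Of the members, 2 (NDUFC1 and ATP5IF1) had no overlap between the groups and were lower, as were 5.41% of all genes, and none had a p under 0.01.

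The direction also differed between the 2 positions of an array on its slide. At position 1 (4 control and 2 cold arrays, among them cold replicate 2), 32 of 46 subunits were higher, with a median change of 0.10. At position 2 (2 control and 2 cold arrays), 33 of 46 were lower, with a median of -0.06. Of all 26303 genes, 13066 were higher at position 1 (median -0.002) and 13642 lower at position 2 (median -0.01). Complex V had 9 of 11 subunits higher at position 1 and 10 of 11 lower at position 2, while complex II was higher by 0.09 and 0.15 in the median. A total of 19 subunits kept the same sign at both positions. With position in the fit, the subunit median was 0.03.

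**Figure D3:**
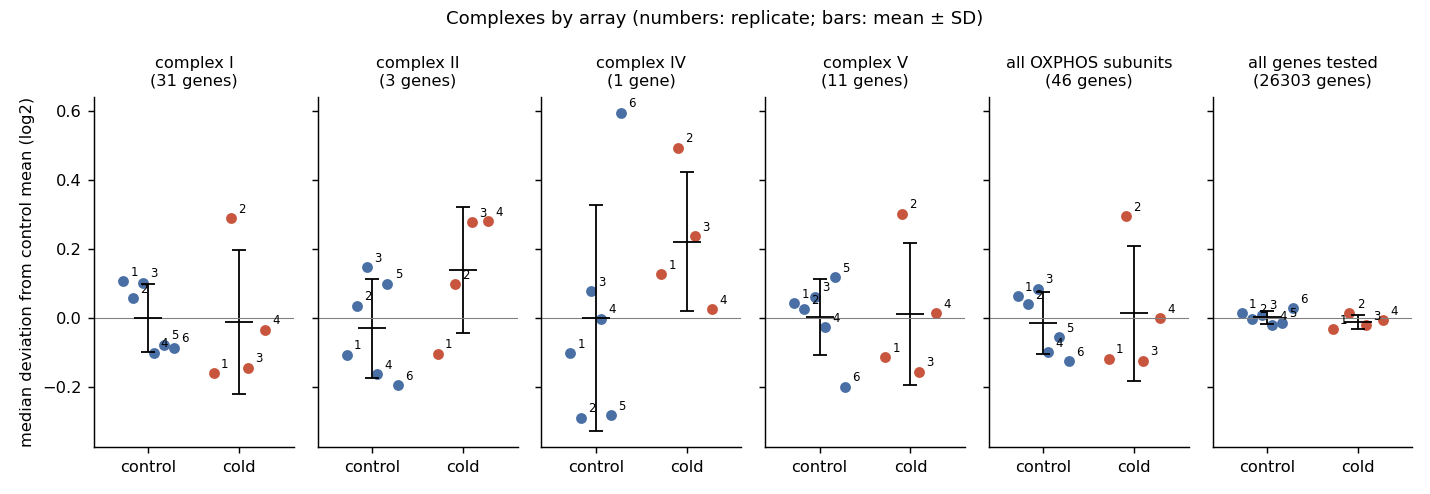
Median over the genes of a complex of the deviation from each gene's control mean (log2, y axis) on each array, with replicate numbers beside the points and bars for the mean ± SD. Cold replicate 2 lies at 0.29 for complex I and 0.30 for complex V, above every other array, whereas in complex II replicates 3 and 4 (both 0.28) are highest, and over all genes tested the arrays lie between -0.03 and 0.03.

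Relative to the reference pool most subunits were low. The control mean was below the pool for 42 of 46 subunits, with a median log2 ratio of -0.32, and for 11983 of 26303 genes tested. On all 10 arrays 21 subunits (45.7%) were below it, against 21.5% of all genes tested. The median was -0.32 for complex I, -0.22 for complex II and -0.58 for complex V, and ATP5MC3 was the lowest at -1.09. NDUFS8 was the one subunit above the pool on all arrays. The zero of this scale depends on the normalisation. When arrays were centred on their median instead, 0 subunits were below the pool on all arrays and 27 of 46 were above it. Of all 26303 genes, 2428 were below and 13538 above. The median control ratio was 2.24 over the subunits and 1.04 over all genes.

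The change between the groups depended on the same choice. With arrays centred on their median, 45 of 46 subunits were lower in cold and their median change was -1.01, while the median of all genes was -0.43. In the deposited value table, in which each value equals the plain log2 ratio plus 1 constant per target sequence and 1 per array, without background subtraction or loess, 42 subunits were lower, with a median of -0.43 against 0.01 for all genes. No member had a p under 0.01 in either. The subunits are bright, with 32 of 46 in the brightest of 10 equal classes of genes by mean Cy3 intensity, which does not compare their RNA amounts because probes differ. In that class the median of all genes was -1.03 with median centring and -0.44 in the deposited table, and that of its subunits -1.02 and -0.45. After loess the medians of the same class were 0.02 and 0.03. Loess levels the ratios of each array along brightness, so the value for all genes was set by the method. A shift shared by most bright genes is removed with it.

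**Figure D4:**
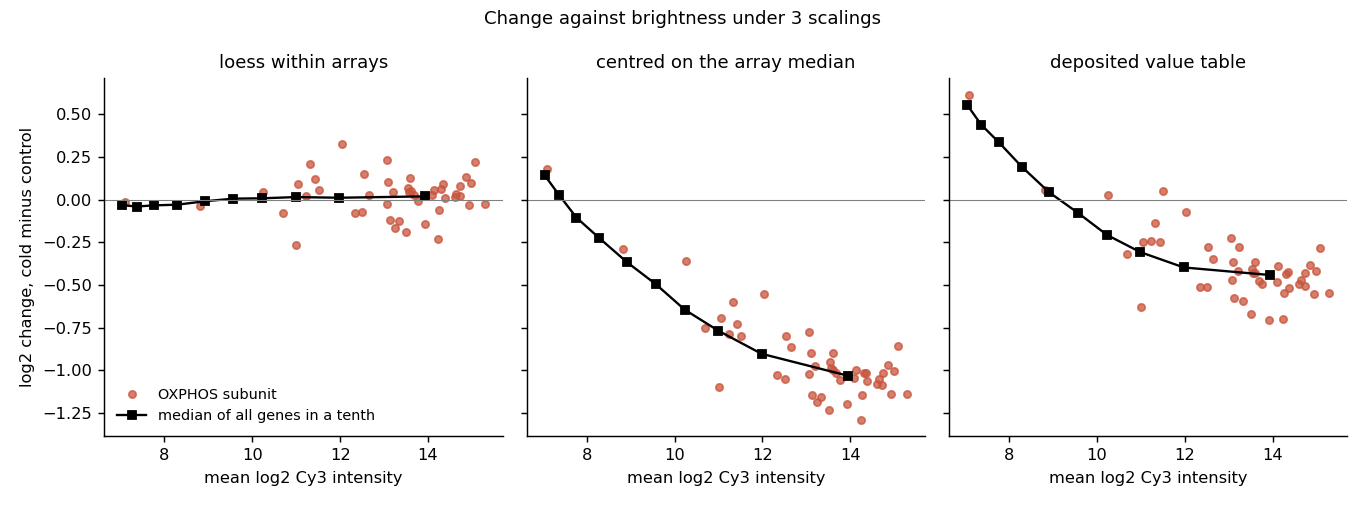
Log2 change (y axis) against mean log2 Cy3 intensity (x axis) of the 46 subunits (points) and of all genes, as medians of 10 classes of brightness (line), under 3 scalings. The line is near 0 throughout after loess, which levels each array along brightness by construction. The line falls to -1.03 and -0.44 in the brightest class with median centring and in the deposited table, and the subunits follow it.

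In the Cy3 channel alone, without the reference and with quantile normalisation between arrays, 24 subunits were higher and 22 lower, with a median of 0.02 (-0.04 for all genes). One member, NDUFA4, had an unadjusted limma p under 0.01, where 5.48% of all genes were higher and 4.36% lower at this threshold. Its log2 intensity ranged from 14.7 to 15.1 (median 15.0) in control and was 15.26, 15.26, 15.27 and 15.30 in cold. All 4 cold values lay above all 6 control values, and they differed from each other by far less than the control values did. The change was 0.32 (limma p = 0.00747, adjusted p = 0.0896, exact permutation p = 0.0190).

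NDUFA8, an accessory subunit of complex I, and NDUFS4, an accessory subunit of its matrix arm, were likewise higher without overlap in Cy3 alone, both by 0.23. These 3 of 50 members compare with 3.57% of all genes higher and 3.46% lower without overlap. At an unadjusted p under 0.05, 6 members were higher (NDUFA4, NDUFA8, NDUFS4, NDUFA10, NDUFA12 and SDHD) and 1 lower (NDUFB7), where 12% of all genes were higher and 12.8% lower. As log2 ratios to the pool, NDUFA8 changed by 0.04 and NDUFS4 by 0.06 (NDUFA4 by 0.22). The Cy5 signal, from the pool, changed by 0.23, 0.07 and 0.21 for the same 3 genes. NDUFB7, an accessory subunit of complex I, changed by -0.32 in Cy3 alone, by -0.27 in Cy5 and by 0.09 as a ratio.

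**Figure D5:**
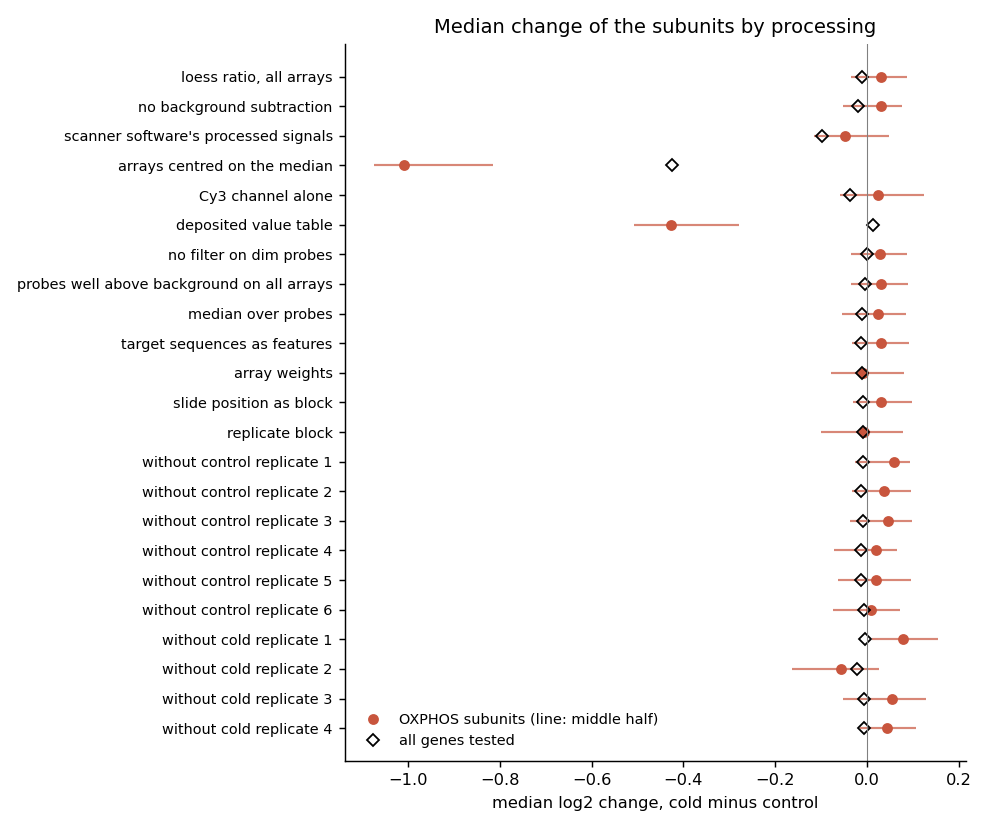
Median log2 change (x axis) of the 46 subunits, with a line between their quartiles, and of all genes tested (open diamonds) under each way of processing. The subunit median lies between -0.06 and 0.08 in all settings but median centring (-1.01) and the deposited table (-0.43).

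Other genes of the respiratory chain, which carry electrons to it or assemble its complexes, were measured for 18 of 22 genes that the gene table names. Of these, 7 were higher and 11 lower in cold, with a median of -0.13. By limma 2 had an unadjusted p under 0.01, both lower, and 1 of them did not overlap, where 3.43% and 2.15% of all genes were lower by these measures. They were ECSIT and TMEM126A, assembly factors of the complex I membrane arm.

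ECSIT ranged from -0.04 to 0.09 in control and was -0.41, -0.13, -0.50 and -0.16 in cold, below every control value. It changed by -0.34 (standard error 0.09, limma adjusted p = 0.085, exact permutation p = 0.00476, the smallest that 210 splits can give). TMEM126A ranged from -0.02 to 0.19 in control and was -0.37, 0.01, -0.29 and -0.39 in cold. Its change was also -0.34 (exact permutation p = 0.00952), but it was 0.04 in the deposited value table and -0.14 with only probes well above background on all arrays. Of the other factors that act with ECSIT, NDUFAF1, ACAD9, TMEM126B and TIMMDC1 changed by -0.06, -0.12, -0.15 and -0.14, none past p 0.05.

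At an unadjusted p under 0.05, 4 of the 18 were lower and 1 higher, against 12.5% and 12.2% of all genes. Beside ECSIT and TMEM126A, the lower ones were NUBPL (-0.21), which delivers iron-sulfur clusters to complex I, and LYRM7 (-0.20), a complex III assembly factor. The higher one was SDHAF4 (0.55), an assembly factor of complex II. Its values in cold were 0.85, 0.41, 1.61 and 1.17, and 0.11 to 0.74 in control.

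Of the genes for mitochondrial biogenesis and for the upkeep and expression of mitochondrial DNA, 16 of 23 were measured, with 7 higher and 9 lower in cold and a median of -0.10. None had an unadjusted limma p under 0.01. At p under 0.05, 5 were lower and none higher, where 12.5% of all genes were lower and 12.2% higher. The 5 were TFAM (-0.25), which packages mitochondrial DNA and starts its transcription, MTERF1 (-0.26) and MTERF2 (-0.27) of the mitochondrial termination factor family, the helicase TWNK (-0.23) and the coactivator PPARGC1A (-0.70). TFAM and MTERF1 did not overlap between the groups, and 2.15% of all genes were lower in this way. TFAM ranged from -0.04 to 0.18 in control and was -0.09, -0.11, -0.09 and -0.38 in cold. PPARGC1A had an exact permutation p of 0.0857, and in Cy3 alone its change was -0.02.

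Markers of blood cell types were set beside these values. All 5 monocyte, all 5 neutrophil and all 5 platelet markers measured were higher in cold, with median changes of 0.49, 0.82 and 0.87, while 6 of 7 T cell, 3 of 4 B cell and 4 of 4 erythroid markers were lower, with medians of -0.44, -0.19 and -0.74. Of 3 NK cell markers, 2 were higher and 1 lower (median 0.02). By limma at an unadjusted p under 0.05, 4 monocyte, 4 neutrophil and 3 platelet markers were higher (12.2% of all genes) and 4 T cell and 3 erythroid markers lower (12.5%), with 0 B cell and 0 NK cell markers, and none passed the adjusted threshold. The mean log2 ratio of the list ranged on control and cold arrays from 0.68 to 1.16 and from 1.16 to 1.92 for monocytes, from 0.41 to 1.39 and from 1.72 to 2.30 for neutrophils, and from -0.05 to 1.25 and from 0.74 to 1.77 for platelets. It ranged from 0.05 to 0.34 and from -0.67 to 0.12 for T cells, from -0.13 to 1.26 and from 0.27 to 0.92 for B cells, from 0.38 to 1.13 and from 0.12 to 0.96 for NK cells, and from 0.18 to 1.12 and from -0.85 to -0.06 for the erythroid list. Measured were 7 of 8 listed T cell markers, 4 of 6 for B cells, 3 of 6 for NK cells and 5 of 6 for monocytes. For neutrophils and platelets 5 of 7 each were measured, and 4 of 7 for the erythroid list. Among them were CD3E, CD79A, CD14, S100A9, ITGA2B and HBM. Whether each marker is particular to its cell type in these ferrets was not examined. The part of cell composition in the OXPHOS values was not tested.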

How the data were processed

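The authors deposited, for each of the 10 arrays, spot intensities of both channels from Agilent Feature Extraction 10.7.3.1, which were not normalised, and a table with 1 log2 value for each target sequence and array. Set against the scanner values, that table held the log2 ratio of Cy3 over Cy5 median signals, averaged over spots, plus 1 constant per sequence and 1 per array (largest residual 4.432e-06), so its direction and scale were settled, while the reason for the constants is not given in the sources used here. Its column medians ran from 7.87 to 8.78. The files carry median signals, so these were used in place of the planned mean. The normexp method (offset 50) of limma 3.58.1, run in R 4.3.3, removed background, and ratios of Cy3 over Cy5 were normalised by loess (span 0.3, 4 iterations). Control and outlier spots were left out, spots were averaged per probe and probes per gene. Probes were kept where at least a share of 0.5 of their spots was well above background in Cy3 on at least 4 arrays, which left 111051 probes. Gene symbols were taken from RefSeq (assembly ASM1176430v1.1), whose table named 21104 of 45328 target sequences. Probe sequences and positions were not analysed here, so neither cross-hybridisation nor location was examined.

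Cold and control arrays were compared in limma by lmFit and eBayes over all 26303 genes, with Benjamini-Hochberg adjustment at 0.05, and at the unadjusted threshold of the methods, 0.01. Named members also had an exact two-sided permutation test over 210 splits. Medians over members are descriptions. The 4 cold and 6 control arrays limit the precision of every value. Each array had a slide of its own, and scanning took place on 1 day.

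Members named are those with p under 0.01 or without overlap, those with the lowest p, the largest increase or decrease in their complex, core subunits and isoform sets. Others (NDUFA5, NDUFA8, NDUFS4, NDUFB2, NDUFC1, ATP5MG and those listed by p in an alternative) were chosen after their values were seen, as was the split of complexes I and V into arms. The members and lists were chosen with earlier results of these data known. The alternatives were no background subtraction, the scanner software's processed intensities, median centring, Cy3 alone, the deposited log2 table, no dim-probe filter or a stricter one, probe medians, single target sequences, array weights, the t-test of the methods, slide position or replicate number as a block, and leaving out each array.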

Additional observations from a re-analysis of the deposited data

Results flagged for a closer look

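Of 42 sets of values examined, namely the medians of 5 gene groups and the 16 named members in each of the 2 groups of animals, 2 held a value far from the others of its group, and chance alone gives about 1 in 20. In cold, the NDUFS8 log2 ratio of replicate 2 was 1.01, with the nearest of the other 3 at 0.51, a gap of 0.848 of the range. In control, the ATP5IF1 log2 ratio of replicate 3 was 0.27, with the nearest of the other 5 at -0.29, a gap of 0.721 of the range. The median of the subunits in cold replicate 2 (0.30) was not far enough from the next cold array (0.00) to be marked in the same way.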

How the results depend on the processing

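Of 527 values recomputed under an alternative, 475 kept their direction and side of the threshold, moved by less than the spread between replicates or, for counts, stayed the same. Some alternatives, such as the t-test of the methods, leave a gene's change as it was. No named member had a limma p under 0.01 to begin with. The number kept is therefore high in part by construction. With arrays centred on the median and in the deposited value table, the median change was -1.01 and -0.43 over the subunits, -1.0001 and -0.43 in complex I, -0.78 and -0.22 in complex II, -0.86 and -0.28 in complex IV, and -1.05 and -0.47 in complex V. In the Cy3 channel alone 1 member had a p under 0.01 (NDUFA4, 0.32) and 3 had no overlap between the groups. Leaving out each array in turn gave 0 to 2 members without overlap. They were NDUFS8 without control replicate 2, and NDUFC1 and ATP5IF1 without cold replicate 2. The medians were -0.06 to 0.08 over the subunits, -0.07 to 0.07 in complex I and 0.11 to 0.29 in complex II. In complex IV they were 0.13 to 0.34 and in complex V -0.06 to 0.09. The lowest came without cold replicate 2 for the subunits and complexes I, IV and V.

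Among 16 named members and 369 alternatives the sign turned in 37. With median centring these were ATP5F1A (-0.97), ATP5MC1 (-1.01), ATP5MC3 (-1.01), NDUFA4 (-0.86), NDUFAF5 (-0.56), NDUFS8 (-0.56), SDHB (-0.95), SDHC (-0.78) and SDHD (-0.60). In the deposited table they were ATP5F1A (-0.38), ATP5MC1 (-0.42), ATP5MC3 (-0.43), NDUFA4 (-0.28), NDUFAF5 (-0.19), NDUFS8 (-0.073), NDUFV2 (0.058), SDHB (-0.40), SDHC (-0.22) and SDHD (-0.14). In Cy3 alone they were ATP5F1A (-0.013), ATP5MC1 (-0.053), NDUFS3 (0.036), NDUFV1 (0.12) and NDUFV2 (0.17), and with processed signals ATP5F1A (-0.016), NDUFAF5 (-0.15) and NDUFV2 (0.0092). Leaving out single arrays turned the sign within ranges of -0.067 to 0.016 for ATP5F1B, -0.048 to 0.15 for ATP5MC3, -0.016 to 0.064 for NDUFAF5, -0.15 to 0.022 for NDUFS3, -0.13 to 0.10 for NDUFV2 and -0.0055 to 0.12 for SDHB. The deposited table has no loess by construction. The cause was not tested otherwise.

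With replicate number as a block, the subunit median was -0.01 and NDUFV2 changed by 0.032. The numbers were not taken to pair the arrays, since deviations of same-numbered arrays correlated at -0.30, 0.54, 0.10 and -0.19. With the block 3 members had a p under 0.05 by limma (NDUFA6, NDUFS8 and SDHC), against 1 without it, where 3009 of 26303 genes were higher and 3378 lower at that threshold with the block, and 0 a p under 0.01 in either fit. No value is given for complex III or for complex IV without NDUFA4, whose genes were not analysed here. Signal over background limited NDUFA5 and NDUFAF1 most, with Cy3 well above background on 6 and 9 arrays. In Cy5, 0% of NDUFA5 spots in control and 25% in cold were well above background. For NDUFAF1 these shares were 8.3 and 35%, and for NDUFV2 60.4 and 87.5%.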
